A study of Zea mays with 4 samples.

Results

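The genes described here are the maize genes that stand alone on their chromosomes. A gene was counted as isolated when the nearest other gene with a Zm00001d identifier lay at least 100 kb away on each side. Gaps were measured between gene spans, from the smallest exon start to the largest exon end. Other annotated loci were not counted as neighbours, and gene-free below means free of genes with such an identifier. Of 43789 genes of the B73 RefGen_v4 annotation with a Zm00001d identifier on chromosomes 1 to 10, 1258 met this rule, and the other 42531 serve as the comparison. Expression played no part in the choice. The material was whole B73 wild-type seedlings, raised in soil for 9 days at 25 to 28 °C under 16 h of light and 8 h of dark, with tissue of 10 plants collected at an age of 10 days. Control plants stayed in those conditions, and cold plants spent 24 h at 4 °C. RNA-seq gave 2 libraries per condition, and the labels do not say whether libraries of a condition came from separate cultures of plants, so p-values measure the spread between these libraries, which may be technical. Seedling markers could not be used to check the tissue, because the reference table used here pairs 0 of the 44146 nuclear identifiers in the deposited table with a name.

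The maize genome is large and consists mostly of transposable elements. Genes are dense towards the chromosome ends and sparse around the centromeres, where long stretches of repeats separate them. Many plant genes are controlled by sequences just before their start, and genes that lie close together can share open chromatin or be read through by a neighbour's transcription. The series concerns nucleosomes under cold, and the question put to the RNA data here is whether genes without close neighbours differed from the rest in transcript level or in their change after a day of cold.

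Isolated genes were built much like other genes. Their smaller gap had a median of 134 kb, with quartiles of 113 and 171 kb, and reached 880 kb. The other genes had a median smaller gap of 2.99 kb. Isolated genes had a median of 3 exons, like the other genes, and 25.7% had a single exon against 26.7%. Their exons added up to a median of 1356 bases, against 1261 bases, and 49.0% lay on the plus strand against 51.0%. Most were flanked by genes that were not isolated: 653 of them stood as the only isolated gene in a row, while the longest rows, found in 3 places, held 6 consecutive isolated genes.

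They lay in the middle of the chromosomes. With the gene-covered length of each chromosome divided into 10 equal bins, 79.0% of isolated genes fell into bins 3 to 7, against 31.3% of the other genes. Bin 4 held the most isolated genes, 254, and bin 10 the fewest, 15. The other genes were spread the other way, with 1903 in bin 4 and 7958 in bin 10. Since the rule selects for sparse neighbourhoods, this placement describes the genes and is not a result of the experiment.

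**Figure D1:**
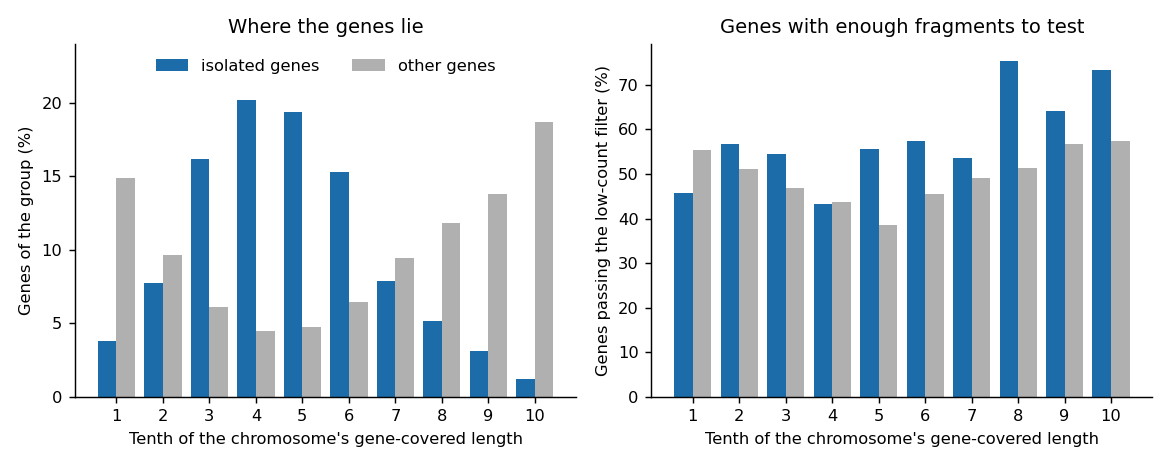
Left, the percent of isolated genes (blue, 1258 genes) and of other genes (grey, 42531 genes) in each of the 10 bins of the gene-covered chromosome length, over chromosomes 1 to 10. Right, the percent of each group in that bin that had enough fragments to be tested, which is lower for isolated genes in bins 1 and 4 and higher in the remaining bins.

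Depth was similar across libraries. Over all 46430 loci of the table, 28493929 and 23713326 fragments (read pairs) were assigned in control, and 24176378 and 20942576 in cold. Levels are given as CPM, the fragments of a gene divided by those of its library and put on a common scale. A floor of 3 fragments corresponds to 0.105 to 0.143 CPM in a library, by library totals. Fragments carry no molecular identifiers, so floors cover counting error only. All other CPM values here use library sizes corrected with TMM factors. In bulk seedlings, fewer cells that express a gene and less RNA per cell cannot be told apart.

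Taken as a group, isolated genes were detected as often as other genes. Of the 1258 isolated genes, 401 (31.9%) had no fragment in any library, against 32.7% of the other genes. A further 174 had fragments but too few to test, and 683 (54.3%) passed the low-count filter, against 52.0% of the other genes. Per library, between 61.2% and 63.5% of isolated genes had a fragment, and between 60.0% and 61.5% of the others. The level of tested genes was also close. Scaled to exon length, the median isolated gene in control had 5.91 and 5.99 CPM per kb, and 6.18 and 5.71 in cold, while the median of the others lay between 5.83 and 5.87 CPM per kb. For the 401 genes without a fragment, 3 fragments over the 4 libraries together would correspond to 0.0308 CPM, and lower levels were not detectable at this depth.

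Pooled over the middle bins and over the outer bins, isolated genes passed the filter more often than all other genes there, a split made after the values were seen. In bins 3 to 7, 521 of 994 isolated genes (52.4%) were tested, against 45.5% of 13303 other genes. In the outer bins the values were 61.4% of 264 and 55.0% of 29228. Genes that just miss the rule, with a smaller gap of 50 to 100 kb, passed as often as isolated genes, at 52.2% in the middle and 62.9% in the outer bins. Nor did every bin show the excess: in bin 4, with the most isolated genes, 43.3% were tested against 43.8% of the others, and in bin 1 45.8% against 55.4%. Both groups were tested less often in the middle, where most isolated genes lie, and this brought their overall shares together. The excess in the middle was seen in genes with 1 exon (37.1% against 28.1%), 2 to 4 exons (50.7% against 42.1%), 5 to 10 exons (62.2% against 60.2%) and over 10 exons (80.5% against 73.4%). Fragments that overlap more than 1 gene were left out of the counts, and 44.8% of genes that overlap another gene were tested. Leaving out overlapping genes moved the share of the others in the middle from 45.5% to 45.8%. Fragments with several mapping places were also left out of the counts, and genes were not split by them. The cause of the excess was not tested. Genes were not replicates here, and no test over genes was made.

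The relation with distance was not a steady one. Genes whose smaller gap was 50 to 100 kb passed the filter in 57.0% of cases and isolated genes with a gap of 100 to 150 kb in 57.5%. Beyond that the share fell to 50.2% of 269 genes at 150 to 200 kb, 48.2% of 141 genes at 200 to 300 kb and 39.0% of 41 genes with more than 300 kb on each side, of which 48.8% had no fragment.

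**Figure D2:**
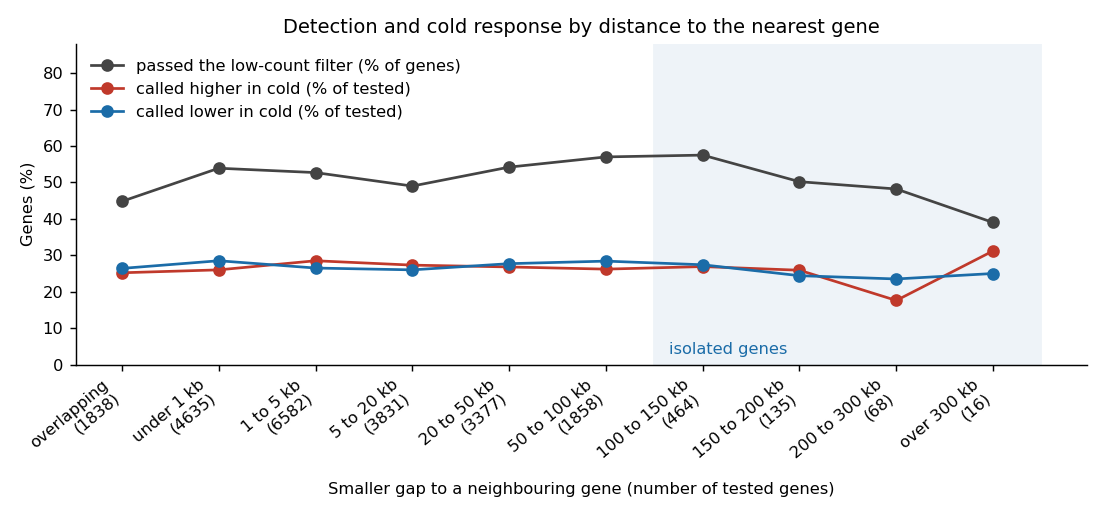
Percent of genes that passed the low-count filter (dark grey), and percent of tested genes called higher (red) or lower (blue) in cold, against the smaller gap to a neighbouring gene, with the number of tested genes per class in brackets and isolated genes on the shaded ground. The called shares lie between 17.6% and 31.2% in all classes, and the extremes come from the classes of 68 and 16 tested genes.

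Isolated genes took a slightly larger part of the nuclear transcripts in cold, and the net increase was not seen without 1 gene. They held 3.82% and 3.83% of the fragments of all Zm00001d genes on chromosomes 1 to 10 in control, and after cold 4.27% and 4.47%. The 2 conditions did not overlap, and the mean difference was 0.547 percentage points. An exact two-sided permutation test gave p = 0.33, the smallest that 2 libraries against 2 can reach. The gene Zm00001d035337 alone went from 0.0305% and 0.0263% to 0.572% and 0.788%. Without it the remaining isolated genes held 3.78% and 3.81% in control and 3.70% and 3.68% in cold, a difference of -0.104 percentage points (exact permutation p = 0.33). Among the fragments of isolated genes, its part went from 0.743% ± 0.0788 to 15.5% ± 3.0 (SD, n = 2 each). The net change is a balance of rises and falls in many isolated genes. Those called higher in cold went from a mean of 0.713% of nuclear fragments to 2.12%, and those called lower from 0.922% to 0.411%. Both groups were formed by calls in these same libraries, so the direction of each sum follows from the choice. Isolated genes not called or not tested are in neither sum and also contribute to the net change.

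**Figure D3:**
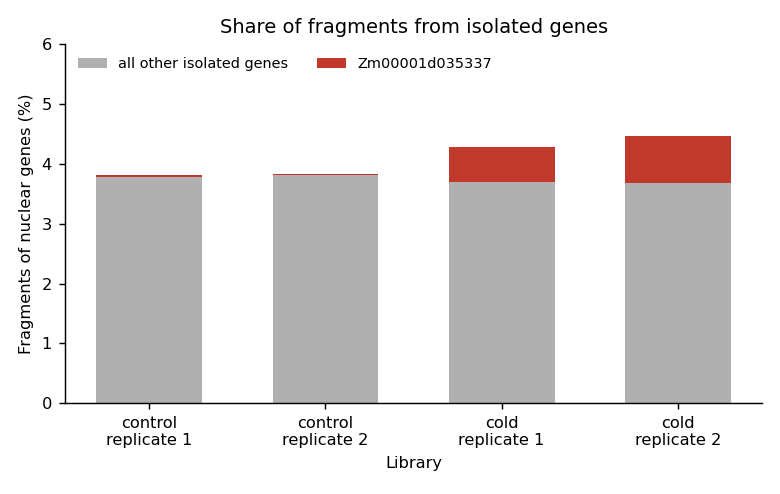
Fragments from isolated genes as a percent of all fragments of Zm00001d genes on chromosomes 1 to 10 in each library, with Zm00001d035337 in red and the remaining isolated genes in grey. The grey part stays between 3.68% and 3.81%, and the red part is visible mainly in the cold libraries.

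A small number of isolated genes were among the abundant transcripts of the seedling. In control, 52 and 51 isolated genes stood at 100 CPM or more, and 80 and 77 did in cold, or 4.13%, 4.05%, 6.36% and 6.12% of the group. The other genes stood at 3.74% and 3.67% in control and at 4.77% and 4.97% in cold. With library totals in place of TMM factors, 54 and 60 isolated genes reached that level in control, and 77 and 68 after cold. That is 4.29%, 4.77%, 6.12% and 5.41% of the group, beside 3.99%, 4.12%, 4.58% and 4.34% of the other genes. Of the 1258 isolated genes, 47 were at 100 CPM or more in all 4 libraries with TMM factors. Another 25 were above that level in both cold libraries and in no control library, and all 25 were called higher in cold. The reverse was found for 2 genes, both called lower. Upward crossings also outnumbered downward ones among the 42531 other genes, with 620 (592 called higher) against 198 (176 called lower). Crossings were not counted with library totals.

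Of the 5 isolated genes most abundant per kb of exon, 2 were called higher in cold and 3 were not called, and the calls of 3 of the 5 changed with the processing. The highest was Zm00001d035859, a plus-strand gene of chromosome 6 (56821519 to 56821986) with 1 exon of 468 bases, with 326 and 430 kb of gene-free sequence on its sides. The control libraries counted 63962 and 47906 of its fragments, the cold libraries 37544 and 41873, which is 4243 ± 444 and 4110 ± 954 CPM per kb (SD, n = 2 each). The libraries of the conditions overlapped in CPM, and the log2 fold change was -0.05 (SE 0.22, edgeR adjusted p = 0.88). Zm00001d004894 (chromosome 2, 147269761 to 147270804, plus strand, 2 exons) stood at 2778 ± 184 and 3593 ± 509 CPM per kb and was not called (log2 fold change 0.37, SE 0.21, edgeR adjusted p = 0.17). DESeq2 called it higher (adjusted p = 0.033), as did edgeR without cold replicate 1 (adjusted p = 0.047). Zm00001d019518 on chromosome 7 (39337832 to 39338887, plus strand, 3 exons) was lower in both cold libraries, at 1520 ± 271 in control and 1083 ± 79.1 CPM per kb in cold. Its log2 fold change of -0.49 was not called (SE 0.19, edgeR adjusted p = 0.06), but it was called lower by DESeq2 (adjusted p = 0.022) and by edgeR without the low-count filter (adjusted p = 0.017), with upper-quartile factors (adjusted p = 0.018) and with library totals alone (adjusted p = 0.0056). Zm00001d004342 (chromosome 2, 105058417 to 105061020, minus strand, 2 exons) rose from 881 ± 26.3 to 1475 ± 197 CPM per kb, a log2 fold change of 0.74 (SE 0.19, edgeR adjusted p = 0.012). That call was lost without either control library (adjusted p = 0.11 in each case). The fifth of these genes is Zm00001d035337.

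The cold response of isolated genes was as frequent as that of other genes. After cold, 177 of the 683 (25.9%) stood higher and 180 (26.4%) lower by edgeR's quasi-likelihood test at a Benjamini-Hochberg adjusted p below 0.05 over all genes. The background among the 22131 other tested nuclear genes was 27.0% higher and 27.2% lower. At a change of at least 2-fold, 101 isolated genes were higher and 105 lower (14.8% and 15.4%), beside 15.0% and 14.7% of the others. The median log2 fold change was -0.03 in both groups, and the median size of a change, whatever its direction, was 0.66 against 0.65. The 10th and 90th percentiles of the log2 fold change were -1.53 and 1.45 for isolated genes and -1.37 and 1.44 for the others. Replicates differed to a like degree: the median distance between the 2 libraries of a condition, on the log2(CPM + 1) scale, was 0.12 in control and 0.21 in cold for isolated genes, and 0.13 and 0.20 for the others. The shares of isolated genes called lie close to the background, and no difference in response is read from them.

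How the libraries were scaled moved both groups alike. With library totals alone 141 isolated genes were higher and 240 lower, so that 37.0% of calls were higher in place of 49.6%, and the medians were -0.24 for isolated and -0.25 for other genes. Upper-quartile factors gave 146 higher and 233 lower, which is 38.5% of calls higher. Of the tested isolated genes, 20.6% were higher and 35.1% lower with library totals, beside 20.6% and 35.6% of the others. With upper-quartile factors the shares were 21.4% and 34.1%, beside 22.5% and 34.1% of the others.

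The balance of directions varied with level in both groups, which is described here without a test. Among tested genes with a mean over 20 CPM, 102 of 304 isolated genes (33.6%) were higher and 56 (18.4%) lower, beside 36.1% and 22.9% of the other genes. Between 5 and 20 CPM the balance was turned, with 43 of 178 isolated genes (24.2%) higher and 65 (36.5%) lower, beside 23.8% and 34.3%. Isolated genes with a mean of 1 to 5 CPM followed the same pattern, 16.6% higher and 31.7% lower of 145, beside 18.5% and 28.9%. Under 1 CPM, 8 of 56 isolated genes were higher and 13 lower (14.3% and 23.2%), beside 16.0% and 20.7%, and the median log2 fold change was 0.08 against -0.25. By exon number, the largest class of isolated genes, with 2 to 4 exons, had 60 higher and 74 lower of 253 (23.7% and 29.2%), beside 27.9% and 27.6% of the other genes. The class of 5 to 10 exons leaned the other way, with 63 higher and 51 lower of 208 (30.3% and 24.5%), beside 26.8% and 28.3% of the other genes. Isolated genes with a single exon had 28 higher and 35 lower of 122 (23.0% and 28.7%), beside 24.7% and 27.7%. In the middle bins, 24.6% of tested isolated genes were higher and 27.4% lower, beside 24.8% and 28.8% of the others. In the outer bins the values were 30.2% and 22.8%, beside 27.9% and 26.6%.

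**Figure D4:**
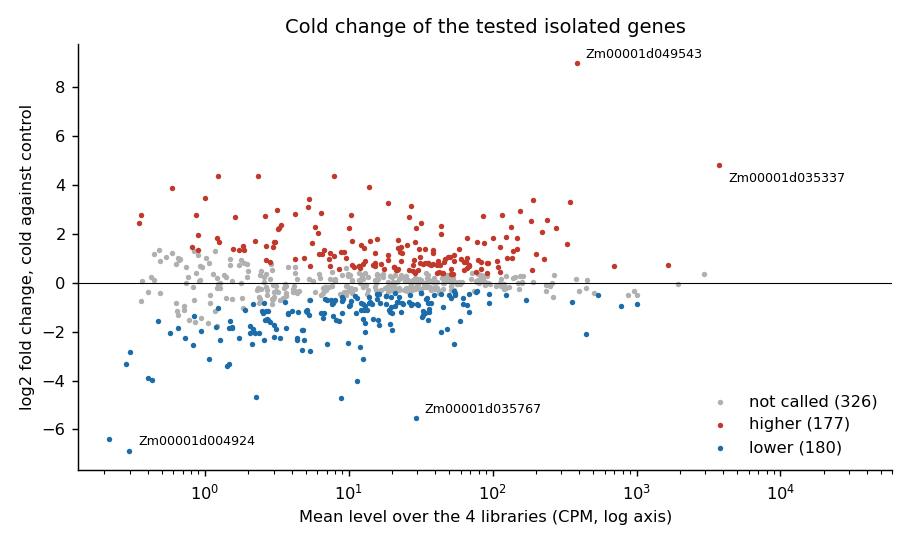
Log2 fold change of the 683 tested isolated genes against their mean CPM over the 4 libraries on a log axis, with 177 genes called higher in red, 180 called lower in blue and 326 not called in grey. Zm00001d049543 and Zm00001d035337 stand above the other points at their level, and Zm00001d004924, at the lower left, had no cold fragment.

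Changes over 16-fold were rare: 5 isolated genes were higher to that degree (0.732%) and 6 lower (0.878%), beside a background of 1.16% and 0.371%. With so few genes the counts moved with the processing, from 3 to 9 higher and from 3 to 11 lower over the alternatives, with the 11 found without cold replicate 1. Of the 6 lower genes, Zm00001d004924 (16 and 17 control fragments) and Zm00001d046089 (12 and 12) had no cold fragment. Against a floor of 3 fragments over the cold group they were at least 8.25-fold and at least 6-fold lower, so their place among the 16-fold changes rests on the fitted value. None of the 1258 isolated genes went from a control mean under 0.1 CPM to at least 1 CPM in both cold libraries. This change was made by 49 of the 42531 other genes. No isolated gene made the reverse change, made by 18 of the others. Both changes were rare among the other genes too, and no difference is read from these counts.

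Among isolated genes averaging 5 CPM or more, Zm00001d049543 rose most steeply. Its 10 exons span 33811 bases of chromosome 4 (34070590 to 34104400, plus strand). Control gave 47 and 38 fragments, cold 15269 and 16337. Nearly silent in control, it was one of the more abundant isolated genes in cold, rising from 1.51 ± 0.0768 to 764 ± 155 CPM (SD, n = 2 each). The fold was 502, with a log2 fold change of 8.97 (SE 0.26, edgeR adjusted p = 1.3e-05), and lay between 8.76 and 9.17 on the log2 scale with a library left out. Its left neighbour, 159 kb away, had no fragment in any library, and its right neighbour, 103 kb away, fell slightly (log2 fold change -0.78, edgeR adjusted p = 0.045).

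Zm00001d035337 (chromosome 6, 22131705 to 22136034, minus strand, 3 exons), at least 207 kb from other genes, held the most fragments of any isolated gene. Control libraries gave 8560 and 6164 fragments and cold libraries 136448 and 162671, so that every cold library exceeded both control libraries by a wide margin. The level per kb of exon was 63.9 ± 8.46 CPM in control and 1781 ± 495 CPM in cold (SD, n = 2 each), a rise of 27.9-fold (log2 fold change 4.80, SE 0.31, edgeR adjusted p = 3.8e-05). The gene 219 kb to its left moved the other way, from 26 and 17 fragments to 2 and 0 (log2 fold change -3.88, edgeR adjusted p = 0.0068), and the one 207 kb to its right had none.

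The rest of the largest rises were smaller in fold. Zm00001d015434 (chromosome 5, 89924027 to 89924707, minus strand, 1 exon) gave 33 and 8 fragments in control, 270 and 348 in cold. It rose 20.7-fold (log2 fold change 4.37, SE 0.47, edgeR adjusted p = 0.00028), and the estimate was unsteady: leaving out control replicate 1 gave 5.60 and leaving out control replicate 2 gave 3.76. Its left neighbour, 124 kb away, was also called higher (log2 fold change 1.52, edgeR adjusted p = 0.00013). Zm00001d030086 on chromosome 1 (104416569 to 104417982, minus strand, 2 exons) had 35 and 58 fragments in control and 427 and 619 in cold, a 15.2-fold rise (edgeR adjusted p = 0.00018). Both cold libraries of this gene were well above both control libraries. Zm00001d050455 on chromosome 4 (89654139 to 89655850, minus strand, 2 exons) showed close replicates, with 26 and 24 control and 234 and 177 cold fragments, or 0.894 ± 0.0383 and 9.74 ± 0.394 CPM (SD, n = 2 each). It rose 10.9-fold (edgeR adjusted p = 5.5e-05), and neither of its neighbours, 337 and 145 kb away, had a fragment. Zm00001d045885 on chromosome 9 (45584508 to 45589124, plus strand, 7 exons) had 1007 and 853 control and 5288 and 8688 cold fragments, a 10.4-fold rise (log2 fold change 3.38, SE 0.32, edgeR adjusted p = 0.00017). Its log2 fold change was 2.78 without cold replicate 2, the higher of the cold libraries.

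Of the isolated genes averaging 5 CPM or more, Zm00001d035767 fell most. It lies on chromosome 6 (46577784 to 46579578, plus strand, 2 exons), where 1904 and 1318 control fragments stand beside 33 and 19 from cold. A transcript of moderate level was thus nearly gone, going from 57.0 ± 9.12 to 1.21 ± 0.281 CPM (SD, n = 2 each), 46.2-fold lower (log2 fold change -5.53, SE 0.22, edgeR adjusted p = 1.3e-05). The gene 220 kb to its left was called higher (log2 fold change 1.55, edgeR adjusted p = 0.047). Zm00001d042317, a short gene of chromosome 3 (160732228 to 160732479, plus strand) whose only exon has 252 bases, fell from 533 and 428 fragments to 18 and 9. That is 26.6-fold lower (edgeR adjusted p = 2.3e-05), and neither of its neighbours was called. Zm00001d015737 (chromosome 5, 114786885 to 114788112, minus strand, 3 exons) stands 459 and 419 kb from its neighbours and had 671 and 532 control and 32 and 23 cold fragments. It was 16.3-fold lower (log2 fold change -4.03, SE 0.20, edgeR adjusted p = 1.8e-05), and the gene 419 kb to its right was also called lower (log2 fold change -1.88, edgeR adjusted p = 0.0046).

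The next falls were more moderate. Zm00001d042293 on chromosome 3 (159520285 to 159524650, minus strand, 3 exons) had 614 and 643 control and 49 and 58 cold fragments, 8.75-fold lower. Zm00001d051349 on chromosome 4 (155450584 to 155453865, plus strand, 3 exons) had 304 and 223 against 30 and 27, 6.86-fold lower. Zm00001d045819 on chromosome 9 (41248926 to 41252992, minus strand, 6 exons) had 574 and 579 against 71 and 68, 6.21-fold lower. In all 3 genes both cold libraries lay far below both control libraries, with edgeR adjusted p of 6.1e-05, 0.00013 and 5.7e-05. The genes with the largest rises and falls were picked by their changes in these libraries, so such separation follows from the choice.

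**Figure D5:**
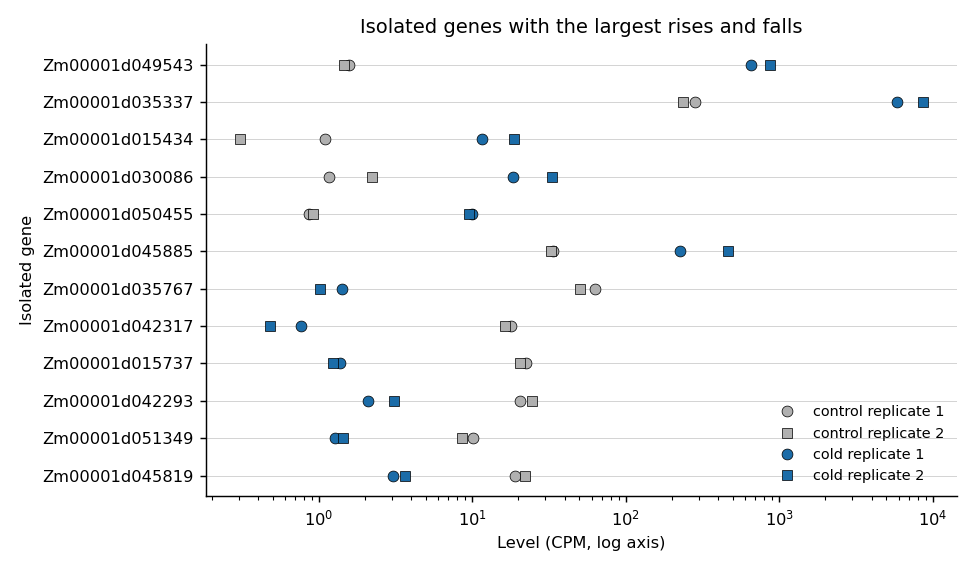
CPM in each of the 4 libraries on a log axis for the 6 isolated genes with the largest rises (upper rows) and the 6 with the largest falls (lower rows) among those averaging 5 CPM or more. Grey marks are control, blue marks cold, circles replicate 1 and squares replicate 2. The genes were chosen by their calls and fold changes in these libraries, so the separation of blue and grey marks follows from the choice. Some passed the mean of 5 CPM through a single condition.

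The loneliest of the tested genes did not move as one. Zm00001d050633 (chromosome 4, 106715915 to 106719762, minus strand, 14 exons) had 880 kb of gene-free sequence on its left and 1076 kb on its right. It was expressed evenly, with 931 and 815 control and 677 and 510 cold fragments, or 31.2 ± 0.168 and 28.1 ± 1.22 CPM (SD, n = 2 each), and was not called (log2 fold change -0.15, SE 0.12, edgeR adjusted p = 0.33). Zm00001d024088 on chromosome 10 (43222466 to 43225929, plus strand, 4 exons, gaps of 711 and 540 kb) had 24.9 ± 0.655 CPM in control and 26.5 ± 4.56 in cold and was not called either (edgeR adjusted p = 0.62). Zm00001d000561 on chromosome 3 (84004979 to 84006525, minus strand, 2 exons, gaps of 506 and 1286 kb) fell from 222 and 239 to 28 and 23 fragments, 6.80-fold lower (edgeR adjusted p = 0.00016). The last pair of these genes are neighbours of each other across 481 kb on chromosome 2, and they were called in opposite directions. Zm00001d004664 (127649757 to 127651304, minus strand, 1 exon) fell from 16.7 ± 1.09 to 3.05 ± 1.28 CPM (log2 fold change -2.47, SE 0.28, edgeR adjusted p = 0.00033). Zm00001d004667 (128132374 to 128184491, minus strand, 20 exons) went up, with 32.4 ± 3.02 CPM in control and 53.4 ± 1.72 in cold (log2 fold change 0.72, SE 0.12, edgeR adjusted p = 0.0024).

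Isolated genes and the genes next to them moved the same way in about as many pairs as they moved apart. In 175 pairs of an isolated gene and the next gene on either side, both were called, and in 91 pairs (52.0%) the direction was the same. The number of pairs fell to 104 without control replicate 1 (51.9% alike) and to 82 without control replicate 2 (51.2%). Over all alternatives the share ran from 51.2% to 56.7%, the latter with library totals alone (110 of 194), so no difference from distant pairs without an isolated gene is read from it. Among pairs without an isolated gene, the share was 66.7% of 108 overlapping pairs, 60.3% of 534 pairs under 1 kb apart and 53.6% of 864 pairs 1 to 5 kb apart. It was 58.2% of 546 pairs at 5 to 20 kb and 55.9% of 734 pairs at 20 to 50 kb. At larger distances it was 55.4% of 672 pairs at 50 to 100 kb and 55.2% of 355 pairs at 100 kb or more. Where both genes of a pair were isolated, 22 of 39 pairs (56.4%) moved alike. Pairs share genes and libraries and are not replicates, so the shares are descriptions without a test, and for pairs under 1 kb, reads without strand information cannot be assigned with certainty to one of 2 opposing genes.

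At the edge of the 100 kb rule, the genes just inside were Zm00001d004831, with a smaller gap of 100037 bases and no fragment, and Zm00001d040702, with 100044 bases and 72, 68, 44 and 42 fragments in control and cold libraries. Just outside were Zm00001d004009, with 99980 bases and 1395, 928, 644 and 650 fragments, and Zm00001d041841, with 99961 bases and no fragment. On each side of the limit 1 of these genes was silent, and the expressed gene outside had 13.9 CPM per kb over the libraries against 1.41 for the one inside.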

How the data were processed

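The authors deposited raw counts of fragments per gene in 1 table with a column per library, made with featureCounts 1.6.4 from the B73 RefGen_v4 annotation (release 43) without strand, per the file headers. The submitters' processing notes list fastp and HISAT2 without a version. The command in the header sets no option for fragments with several mapping places or several overlapping genes, so these were not counted. The deposited exon lengths, the other values used, equal the merged exon coordinates in 46430 of 46430 loci, so 0 rows differ.

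Genes with a minimum count of 10 and a total of 15 were kept by edgeR's filterByExpr (23169 of 46430 loci), scaled by TMM and tested two-sided for the effect of condition, without further terms, by edgeR's quasi-likelihood method (version 4.0.16, R version 4.3.3). P-values were adjusted over all 23169 loci with a threshold of 0.05, and the standard error is the size of the log2 fold change divided by the square root of F. A simulation of 23169 genes gave 100 of them a 2-fold and another 100 a 4-fold difference. The test found 70% of the former and 100% of the latter. It made 178 calls, and 8 of these were wrong. Many more genes were called in the data, with 5980 higher and 6018 lower among the other nuclear genes. The simulated rates were not split by level. They are thus not read as error rates of the real test or for genes with few fragments. The replicates of a condition differed by more than counting noise (chi-square per degree of freedom 11.3 in control and 25.0 in cold). The gene at each end of a chromosome lacks a neighbour on one side, so those 20 genes were left out of the isolated genes.

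Named genes are the 6 called isolated genes with the largest rise and the 6 with the largest fall at a mean of at least 5 CPM, the 5 with the highest CPM per kb, the 5 tested ones with the largest smaller gap, and the 2 on each side of the 100 kb limit. Others were named after their values were seen. The members and classes were chosen with earlier results of these data known. Identifiers were matched to a RefSeq gene table of assembly Zm-B73-REFERENCE-NAM-5.0, which paired 0 of 1258 isolated genes with a name, so gene lists by function were not tested and no sequence is shown. Alternatives were other scaling, filters, thresholds, DESeq2 1.42.0, the replicate number as a block, each library left out, and other definitions of isolation.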

Additional observations from a re-analysis of the deposited data

How the results depend on the processing

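With a library left out, the median log2 fold change of isolated genes lay between -0.10 and -0.01, and that of the others between -0.06 and -0.02. Without cold replicate 1 the isolated genes moved by more than the replicate spread of 0.0442, to -0.10 beside -0.06 of the others. The share of nuclear fragments in isolated genes, cold minus control, was 0.449 to 0.645 percentage points with a library left out. Without Zm00001d035337 it was -0.104. The median log2 fold change was -0.19 with upper-quartile factors and -0.24 with library totals alone, where the other genes moved as far. A filter of at least 5 CPM in 2 libraries left 62 isolated genes lower by at least 2-fold, with fewer genes tested. Defining isolation by 50 kb gave 663 higher and 708 lower genes (354 and 407 at 2-fold), 71.3% with a fragment and a difference in fragment share of 1.24 percentage points. Of 2541 tested genes, that is 26.1% higher and 27.9% lower, beside 27.1% and 27.1% of the others. At 200 kb there were 17 higher and 20 lower (11 and 10 at 2-fold), 61.0% with a fragment and 46.2% past the filter. These are 20.2% and 23.8% of only 84 tested genes, beside 27% and 27.2% of the others. Of all isolated genes, 59.1% had at least 10 fragments over the libraries. Counting every locus as a neighbour or keeping the genes at chromosome ends moved no count by over 1.5 times.

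With the replicate number as a block, 165 isolated genes were higher and 169 lower (24.2% and 24.7%, beside 25.2% and 25.2% of the others). Libraries with the same number did not deviate together (correlation -0.0711). The labels do not say whether the numbers pair the libraries, and this correlation cannot settle it. DESeq2 called 170 higher and 153 lower (24.9% and 22.4%, beside 25.5% and 22.3% of the others). Of the named genes, Zm00001d024088 turned to -0.07 with upper-quartile factors, -0.11 with library totals alone, and ranged from -0.10 to 0.27 with a library left out. Zm00001d035859 ranged from -0.29 to 0.17 with a library left out, above 0 without control replicate 1 (0.08) and without cold replicate 1. Neither was called in any of these. The cause of these moves was not tested. Depth limits the statements on genes without fragments.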

Other observations

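Isolated genes of 2 chromosomes leaned in opposite directions, a pattern picked out after the values of all 10 chromosomes were seen and given without a test. On chromosome 5, 12 of 64 tested isolated genes were higher in cold and 27 lower, and the median of their log2 fold changes was -0.38, while the other genes of that chromosome stood at 27.5% higher and 26.6% lower. On chromosome 7, 23 of 64 were higher and 9 lower, with a median of 0.17, beside 27.5% and 27.3% of the other genes. With a library left out, chromosome 5 had 8 to 12 higher and 21 to 28 lower, and chromosome 7 had 15 to 25 higher and 7 to 9 lower. With library totals alone, chromosome 7 had 18 higher and 17 lower with a median of -0.04, and chromosome 5 had 9 higher and 36 lower. That scaling moved all genes down: the other genes of all 10 chromosomes stood at 20.6% higher and 35.6% lower, with a median of -0.25. The other genes of each single chromosome were not counted with it.

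Among the 22 pairs of adjacent isolated genes that moved alike, 16 were both lower and 6 both higher. For isolated genes with a neighbour that was not isolated, 33 pairs were both lower and 36 both higher, and for pairs without an isolated gene at 100 kb or more, 92 and 104. The share of such pairs that moved alike, 56.4%, was 42.1% of 19 pairs without control replicate 1 and 61.3% of 31 pairs without cold replicate 2. Non-coding loci of the annotation lay within 100 kb of 24 isolated genes.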
